A study of Hypsibius exemplaris with 24 samples.

Results

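The transcripts described here are those of the tardigrade *Hypsibius exemplaris* whose level was highest 24 h after the animals left bleomycin. They number 108 of 20853 transcripts in the deposited table, from 108 loci. RNA came from 24 pools of 50 whole animals, 3 pools in each of 8 groups, which the submitters describe as biological replicates. Control pools spent 24 h in mineral water and the treated pools 24 h in 100 µM bleomycin in the same water. Control pools and the treated pools of 0 h were frozen at the end of that time. The rest of the treated pools were rinsed free of bleomycin, put on agar with *Chlorella* as food, held at 18 °C and frozen at 1, 3, 6, 9, 12 or 24 h. The labels give no strain, age or sex of the animals. The control was frozen at the same time as 0 h, so any difference between it and a later group includes rinsing, food, a new plate and up to 24 h of age.

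Bleomycin binds DNA with a metal ion and cuts its strands, and cells answer with repair enzymes and, for a time, with a halt in growth and division. *H. exemplaris* is a small freshwater animal that pierces algal cells and sucks out their contents, moults its cuticle and lays its eggs in the shed cuticle. The deposited table pairs its identifiers with no gene name, product or position, so each transcript is given by its identifier and described by its level, and nothing is said of its function. For the same reason no marker of a tissue could be looked up. In whole animals, fewer cells of a type and less RNA per cell cannot be told apart.

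Levels are deposited as TPM, a length-corrected measure of how much of a library's RNA molecules a transcript makes up. They were divided by a scale factor per library, and the result is called scaled TPM. Considered were the 12916 transcripts that reached 5 TPM in 3 or more libraries. A transcript was taken when its mean log2(scaled TPM + 1) at 24 h lay at least 1.5 above the mean of each of the 7 other groups. That held for 164 transcripts. Of these, 56 were left out because control replicate 2 lay at least 3 below both other controls, which left 108 (0.836% of those considered). The same rule with another group in place of 24 h would take 11 transcripts for the control, 8 for 0 h, 1 for 1 h, 2 for 3 h and 9 for 12 h. It would take 0 for 6 h and 0 for 9 h. Every difference between 24 h and another group was used to choose the transcripts and is given below as a description, without a test.

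Control replicate 2 stood apart from the other controls on these transcripts even after the 56 were left out. It was the lowest of the 3 controls for 83 of the 108 (76.9%), against 35.1% of the 12916 transcripts considered. The median of the 108 on the log2 scale was 2.68, 1.07 and 3.56 in control replicates 1 to 3, and 1.35, 0.97 and 1.33 in the 0 h replicates. The library labelled control replicate 2 thus lay within the range of the 0 h libraries. The main results that use the control are given with and without it. The sequencing depth is unknown, since TPM keeps no record of it, and the labels give no batch or date. Between 14984 and 17173 transcripts were above 0 in a library.

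Together the 108 transcripts held 0.998%, 1.21% and 1.31% of all deposited TPM in replicates 1 to 3 of 24 h, a mean of 1.17% ± 0.161 (SD, n = 3). Outside 24 h their share was between 0.0545% in 0 h replicate 1 and 0.421% in 3 h replicate 3. The mean share in the control was 0.208% ± 0.155 (SD, n = 3, as for the means that follow). The control shares other than that of replicate 2 were 0.201% and 0.366%. At 0 h the mean was 0.0632% ± 0.0118, and 1 h had 0.186% ± 0.00702. For 3 h the mean was 0.318% ± 0.101. The share was therefore lowest at the end of the exposure and had a first, smaller height at 3 h. Means of 0.157% ± 0.0529, 0.155% ± 0.0476 and 0.252% ± 0.0700 followed at 6, 9 and 12 h. The 6 transcripts with the highest means at 24 h held between 41.6% and 51.6% of this share in the libraries of 24 h.

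**Figure D1:**
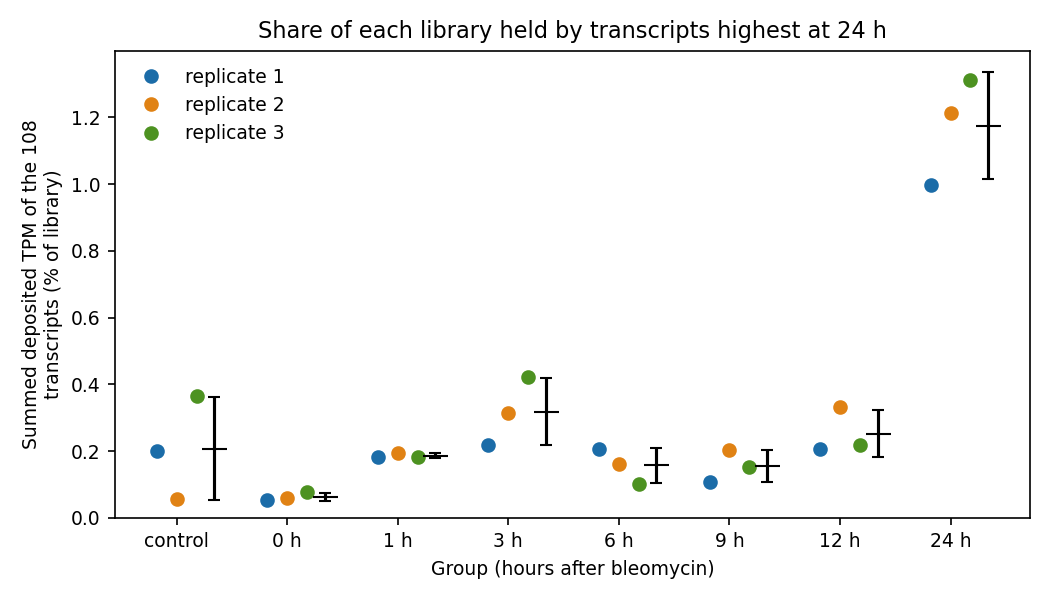
Summed deposited TPM of the 108 transcripts as a percentage of each library, by group in hours after bleomycin. Points are single libraries coloured by replicate number, and bars to the right of them are the mean and SD of 3 libraries. The libraries of 24 h lie between 0.998% and 1.31%, and all others at or under 0.421%.

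Single transcripts covered a wide range of levels at 24 h. Their means ran from 6.83 to 1493 scaled TPM, with a median of 43.5 and quartiles of 21.8 and 86.3. A mean of at least 100 scaled TPM was reached by 26 transcripts, and 24 lay under 20. The margin, which is the mean log2 level at 24 h less that of the highest other group, ran from 1.5 to 3.12 with a median of 1.75. It was at least 2 for 28 transcripts and at least 3 for 3. The rule cuts through a continuous range: 30 transcripts had a margin from 1.5 to 1.6 and 37 from 1.4 to 1.5. The 3 just inside had margins of 1.504, 1.504 and 1.505, and the 3 just outside had 1.499, 1.497 and 1.493.

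By the median over the 108, the log2 level at 24 h was above the control by 2.93, above 0 h by 4.02, above 1 h by 2.84 and above 3 h by 1.96. The median difference from the control was 2.24 without control replicate 2. The level at 24 h was above 6 h by 2.92, above 9 h by 2.83 and above 12 h by 2.16. The largest single difference was 7.94, from 0 h. Over the 12916 transcripts considered, these median differences lay between 0.03 and 0.09. The 24 h libraries of 92 transcripts (85.2%) were all above the other 21 libraries. Among all transcripts considered 6.57% were so, but the rule used these values and nothing is read from the difference. For the other 16 transcripts the libraries of 24 h overlapped those of other times.

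The filter on low values was passed through the 24 h libraries alone by part of the set. At least 5 TPM was reached in no library outside 24 h for 8 transcripts and in fewer than 3 such libraries for 22, while 86 would have passed without the 24 h libraries. All 3 libraries of 24 h had at least 5 TPM for 104. In every one of the 24 libraries 54 of the 108 were above 0. At 0 h, 15 were listed at 0 in all 3 libraries, against 4 in the control. The later groups up to 12 h had between 1 and 4 such transcripts. The share of all transcripts considered that were listed so was not counted. The library with the fewest transcripts above 0 was 0 h replicate 2, with 14984.

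The replicates of 24 h did not give equal weight to the set. For 79 transcripts the 3 libraries lay within 2-fold of each other, and for 9 they were more than 4-fold apart. Replicate 1 was the lowest of the 3 for 61 transcripts (56.5%), against 38.5% of the transcripts considered. Replicate 3 was the highest for 55 (50.9%), against 28.3%. BV898_13059 had the largest margin, 3.12, and was at 5.64, 25.7 and 54.7 scaled TPM in replicates 1 to 3 of 24 h. Each of the 0 h and 1 h libraries listed it at 0, and its highest value elsewhere was 9.99, in 12 h replicate 3, which is above 24 h replicate 1. BV898_16132 had the next margin, 3.05, and was at 144, 9.44 and 9.37 in the 24 h libraries and at most 6.85, in 6 h replicate 1, in any other. Its libraries did not overlap those of other groups, but 1 library gave most of its mean of 54.2 ± 77.6 (SD, n = 3). BV898_13017, named after its values were seen, had the third margin, 3.01, and even 24 h libraries at 44.8, 41.1 and 41.3. Its highest value elsewhere was 10.8, in control replicate 3.

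Each 24 h library was also held out in turn, the transcripts were chosen again on the other 23 libraries, and their level was read in the library held out. Without replicate 1 the rule took 134 transcripts, and 132 of them were above every other group mean in replicate 1. Without replicate 2 it took 106, of which 102 were so, and without replicate 3 it took 81, of which 79 were so. Of all transcripts considered, 22.1%, 23.4% and 24.1% were so in replicates 1 to 3. In the library held out, the median difference from the highest other group mean was 1.36, 1.53 and 1.90 on the log2 scale, and 47 of 134, 55 of 106 and 63 of 81 reached 1.5. The means of the other 7 groups and the other 24 h libraries were still used in the choice, so these values describe the spread among 24 h libraries and are no independent support.

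**Figure D2:**
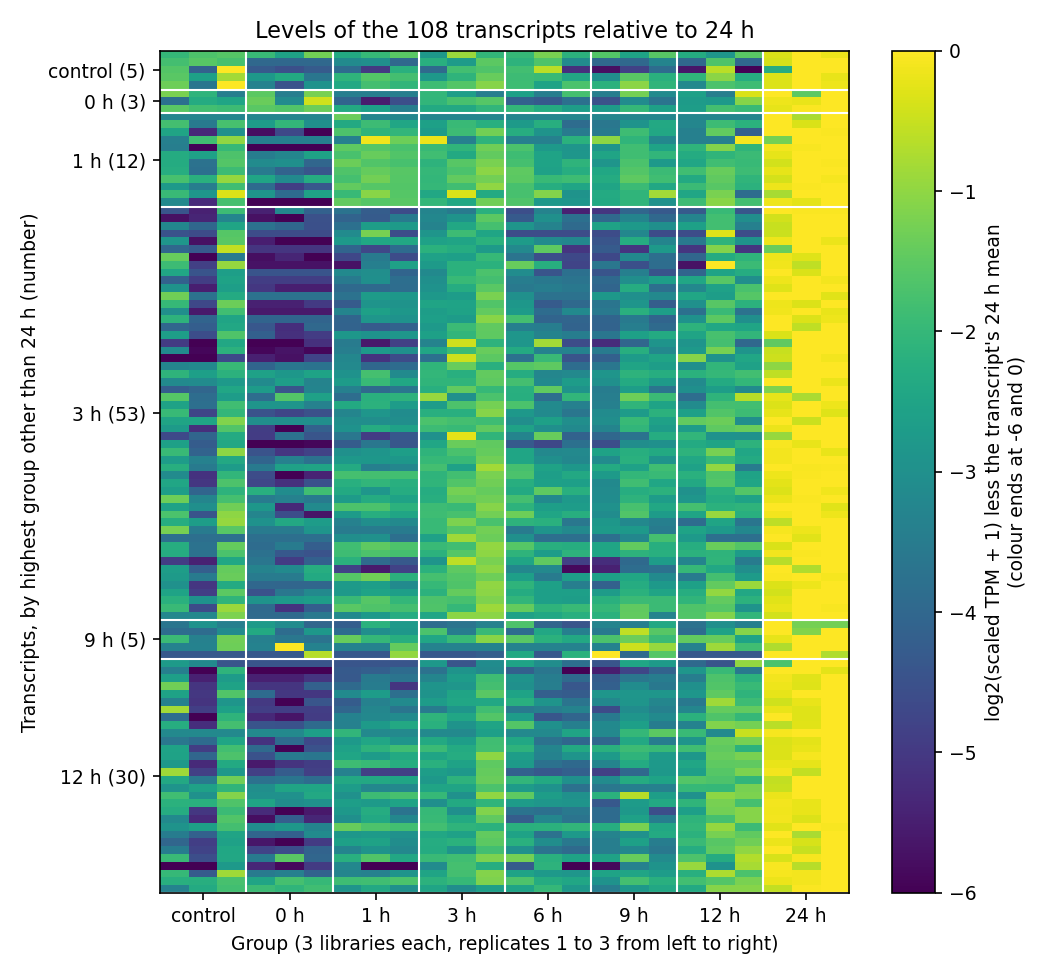
Level of each of the 108 transcripts in the 24 libraries, as log2(scaled TPM + 1) less the transcript's own mean at 24 h. Transcripts are in blocks by their highest group other than 24 h, with the number in each, and the columns are the 3 replicates of each group. The 24 h columns are the lightest by the choice of transcripts, 0 h and control replicate 2 are the darkest, and the largest block is that of 3 h with 53 transcripts.

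The order of the groups before 24 h was not asked for by the rule, and more than 1 course was found among the 108 transcripts. The rule sets a ceiling on every other group but says nothing of their order. Of the 7 other groups, 3 h had the highest mean for 53 transcripts (49.1%), against 11.2% of all transcripts considered. It was 12 h for 30 (27.8%, against 30.4%), 1 h for 12 (11.1%, against 12.3%) and the control for 5 (4.63%, against 22.0%). It was 9 h for 5 (4.63%, against 4.41%), 0 h for 3 (2.78%, against 14.4%) and 6 h for 0 (against 5.25%). Without control replicate 2 the control was highest for 25 (23.1%, against 21.4%) and 3 h for 42 (38.9%, against 10.4%), so this order depended on that library. The group with the lowest mean was 0 h, alone or tied, for 81 (75%), against 21.7% of all transcripts considered. It was 82 without control replicate 2. For transcripts that passed the filter only through 24 h libraries, this order is read at low levels. Among the 86 that passed outside 24 h it was 68 (79.1%), against 21.4% of the 12783 transcripts past that filter. A lower mean at 0 h than in the control, a higher one at 1 h than at 0 h and at 3 h than at 1 h, a lower one at 6 h than at 3 h and a higher one at 12 h than at 9 h were found together in 64 of the 108 (59.3%). The other 44 did not follow it. That combination was found in 7.16% of the transcripts considered. Each of its directions is the one that most of the 108 showed. The step from 6 h to 9 h, where 60 had a higher mean, is not part of it. The combination was thus read from these same transcripts, and nothing is read from its difference from the 7.16%. It was found in 65 of the 108 without control replicate 2, and with all libraries in 55 of the 86. These are counts of group means with no test. The steps share libraries with each other.

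The contrasts below involve no 24 h library in the groups compared, and were tested with limma over 16490 transcripts with Benjamini-Hochberg adjustment and a threshold of 0.05. Differences are of mean log2(scaled TPM + 1), which understates the change of low transcripts. With 3 libraries a group, the smallest p that exact permutation could reach for a single transcript is 0.1.

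The first question is where these transcripts stood at the end of the exposure. At 0 h against control, 17 of the 108 fell and 0 rose. Over all transcripts tested, 4.12% fell and 3.75% rose. The median difference over the 108 was -1.20, against -0.03 over all tested. A lower mean at 0 h was found for 91 of the 108 (84.3%), against 53.9% of the transcripts considered. Among the 86 that passed the filter outside 24 h it was 77 (89.5%), against 53.9% of the transcripts past that filter. BV898_05515 had the largest fall. Control replicates 1 to 3 had 118, 19.9 and 325 scaled TPM of it, and the 0 h replicates had 4.31, 3.24 and 5.30. The groups did not overlap, and control replicate 2 was the nearest to 0 h. The log2 difference was -4.16 (standard error 0.61, adjusted p = 1.90e-04 by limma, lower in all 3 libraries), and the adjusted p was 0.0718 when only the 6 libraries compared were fitted. The difference was -5.24 without control replicate 2. BV898_13020 fell from 23.0, 2.78 and 58.9 in the controls to 0.336, 0.343 and 1.76 at 0 h. Its log2 difference was -3.37 (standard error 0.74, adjusted p = 0.00724 by limma, lower in all 3 libraries). The adjusted p was 0.0851 with only the 6 libraries fitted, and the call was also lost without control replicate 3. Its difference was -4.47 without control replicate 2.

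The count at 0 h depended on the control libraries. Without control replicate 2 it was 56 of the 108 (51.9%), where 6.64% of all transcripts fell, and the median difference was -1.74. Without control replicate 1 it was 7, where 1.68% of all transcripts fell, and without control replicate 3 it was 6 (5.56%), where 1.76% fell. Leaving out 0 h replicate 2 gave 10, of which 9 fell, where 2.07% of all transcripts fell. Leaving out 0 h replicate 3 gave 11, where 2.04% fell. With only the 6 libraries compared it was 2 (1.85%), where 1.31% of all transcripts fell. All 3 libraries of 0 h lay below all 3 controls for 23 of the 108 (21.3%), against 15.4% of the transcripts considered, and below control replicates 1 and 3 for 75 (69.4%), against 24.8%. What sets control replicate 2 apart was not tested.

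**Figure D3:**
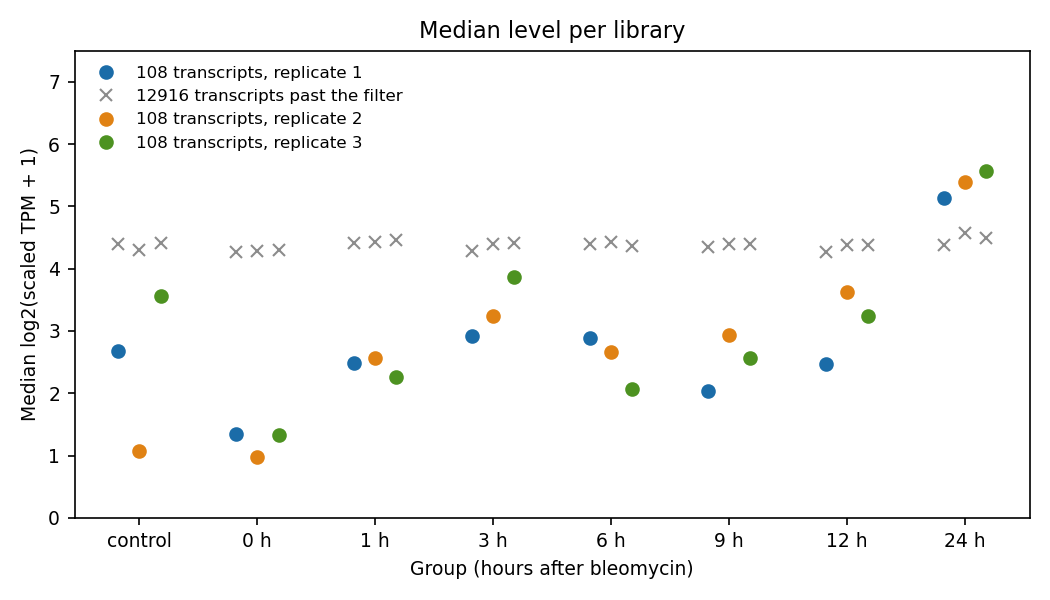
Median log2(scaled TPM + 1) of the 108 transcripts in each library (coloured points) and of all 12916 transcripts past the filter (grey crosses), by group in hours after bleomycin. The medians of the 108 lie between 0.97 and 1.35 at 0 h and between 5.13 and 5.56 at 24 h, and control replicate 2 lies at 1.07, while the grey crosses stay between 4.28 and 4.57.

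The next step was the first hour on plates with food. At 1 h against 0 h, 40 of the 108 (37.0%) rose and 3 fell. Over all transcripts tested, 12.6% rose and 10.2% fell. The median difference was 1.11, against 0.01 over all tested. Fitted only over transcripts past the filter of the rule, 41 of the 108 rose and 3 fell, where 16.4% of all rose and 12.8% fell. This contrast holds no control library. BV898_05515 rose from the values of 0 h given above to 457, 430.0 and 388 at 1 h, a mean of 425 ± 34.5 (SD, n = 3). The log2 difference was 6.35 (standard error 0.61, adjusted p = 1.02e-06 by limma, higher in all 3 libraries). All 3 libraries of 1 h were above all control libraries of this transcript. Its later means were 382 ± 117 (3 h), 251 ± 121 (6 h), 251 ± 94.7 (9 h) and 397 ± 165 (12 h; SD, n = 3), and the 24 h libraries had 1187, 1223 and 1450.5. BV898_16063 was also lowest at 0 h. It was at 22.4, 4.49 and 61.3 in the controls, at 1.70, 0.975 and 1.90 at 0 h and at 76.5, 69.4 and 71.8 at 1 h. Its log2 difference at 1 h was 4.88 (standard error 0.56, adjusted p = 4.85e-06 by limma, higher in all 3 libraries). At 24 h it was at 189.6, 178 and 274.

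The 3 transcripts that fell in the first hour were singled out after their values were seen. BV898_13294 was at 24.2, 6.63 and 47.7 at 0 h and at 2.89, 0.406 and 1.78 at 1 h, with no overlap. Its log2 difference was -3.09 (standard error 0.57, adjusted p = 6.10e-04 by limma, lower in all 3 libraries). BV898_08163 was at 90.2, 103 and 188 at 0 h and at 31.3, 18.2 and 31.5 at 1 h, a log2 difference of -2.16 (limma, adjusted p = 0.0293), and its call was lost in 5 of 36 alternatives, each without a library of 0 or 1 h. BV898_18646, the transcript nearest the threshold of the rule, was at 10.4, 9.65 and 12.1 at 0 h and at 5.48, 4.39 and 2.09 at 1 h, a log2 difference of -1.30 (limma, adjusted p = 0.00303). These 3 were among the 17 with a lower mean at 1 h than at 0 h.

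The contrasts of 3 h with 1 h, 6 h with 3 h and 9 h with 6 h were added after the values had been seen. At 3 h against 1 h, 10 of the 108 (9.26%) rose and 0 fell. Over all transcripts tested, 4.54% rose and 3.13% fell. The median difference was 0.83, against -0.01 over all tested. Among the 10 called, the largest rises belonged to BV898_08163 and BV898_13294, which had fallen in the first hour. BV898_08163 was at 201, 325 and 440.0 at 3 h, a log2 difference of 3.5 (standard error 0.69, adjusted p = 0.00406 by limma, higher in all 3 libraries). BV898_13294 was at 14.9, 18.6 and 21 at 3 h, a log2 difference of 2.94 (standard error 0.57, adjusted p = 0.00334 by limma, higher in all 3 libraries). Leaving out 1 h replicate 1, 2 or 3 gave 6, 5 and 5 in place of 10, where 3.14%, 2.18% and 2.33% of all transcripts rose. Leaving out 3 h replicate 2 gave 6, 3 h replicate 3 gave 5 and control replicate 2 gave 17, where 4.69%, 3.61% and 4.96% rose. It was 32 (of which 32 rose) with quality weights per library, where 9.02% of all transcripts rose.

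At 6 h against 3 h, 4 of the 108 (3.70%) fell and 0 rose. Over all transcripts tested, 1.24% fell and 0.473% rose. The median difference was -0.87, against 0.01 over all tested. BV898_18211 fell from 12.6, 27.7 and 25.9 at 3 h to 2.78, 1.83 and 4.35 at 6 h, with no overlap. Its log2 difference was -2.51 (standard error 0.45, adjusted p = 0.00461 by limma, lower in all 3 libraries). This transcript had been at 11.4, 2.87 and 12.9 in the controls, and was listed at 0, 0 and 0.243 at 0 h. It was at 70.4, 63.8 and 87.4 at 24 h, so that its level went down to near 0, up, down and up again within the series. BV898_13294 fell to 2.73, 2.32 and 3.76 at 6 h, a log2 difference of -2.29 (limma, adjusted p = 0.0437), a call lost in 13 of 36 alternatives. In place of 4, the count was 2 when 3 h replicate 2 was left out, where 1.21% of all transcripts fell. It was 1 when 3 h replicate 3, 6 h replicate 2 or 6 h replicate 3 was left out, where 0.861%, 0.406% and 0.558% fell. Leaving out control replicate 2 gave 12, where 1.63% fell. With quality weights it was 31, all falls, where 4.40% of all transcripts fell.

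At 9 h against 6 h limma called 0 of the 108, with 1 at an unadjusted p under 0.05. Over all transcripts tested 0 were called, 0% in each direction, with 665 at an unadjusted p under 0.05. The median difference over the 108 was 0.05.

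**Figure D4:**
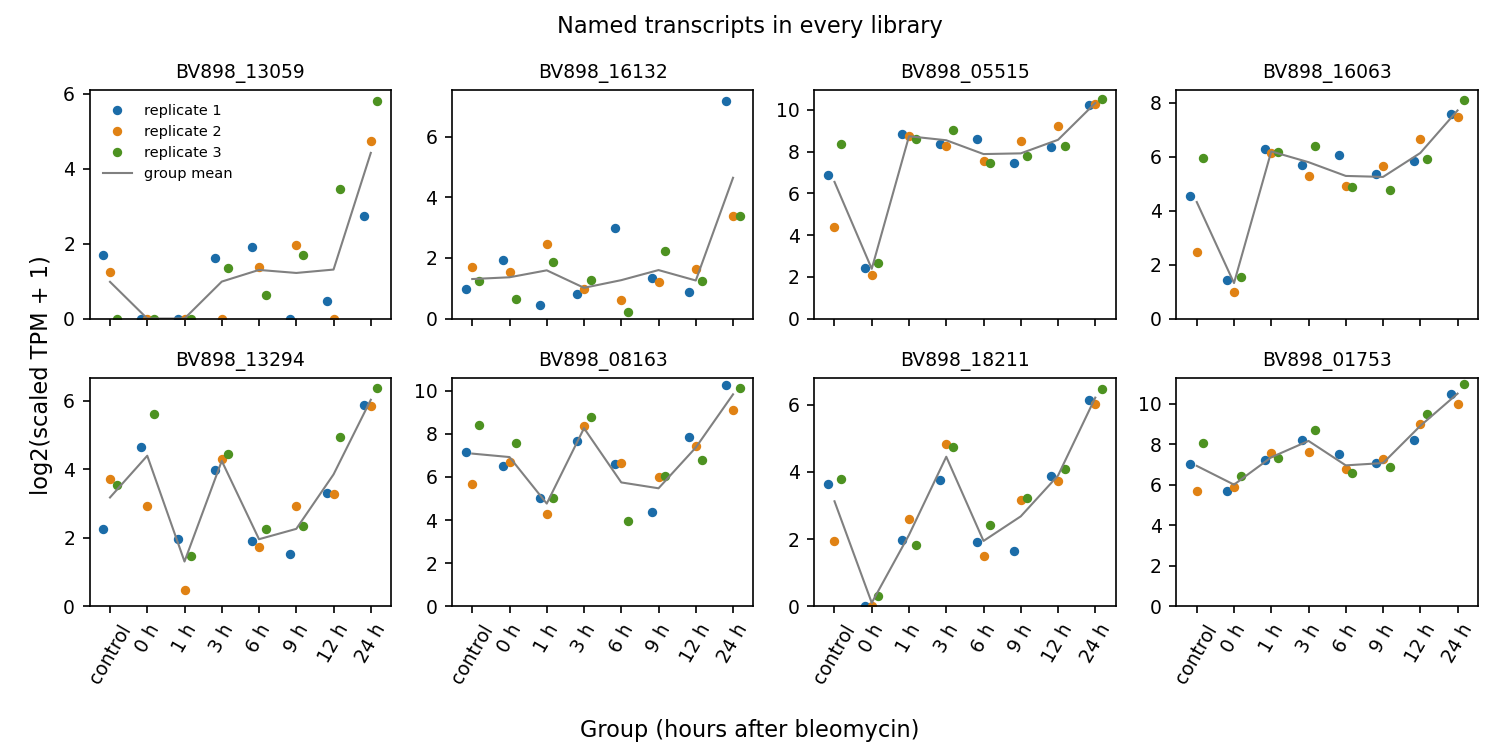
Level of 8 named transcripts, log2(scaled TPM + 1), in every library by group in hours after bleomycin. Points are libraries coloured by replicate number and the line joins the means of 3 libraries. BV898_05515 and BV898_16063 are low at 0 h and high from 1 h, BV898_13294 is low at 1 h and from 6 to 9 h, and BV898_18211 is near 0 at 0 h. BV898_08163 is low at 1 h, and at 6 h its replicate 3 lies far below replicates 1 and 2.

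The last question is whether the transcripts had begun to rise by 12 h. At 12 h against 9 h, 12 of the 108 (11.1%) rose and 0 fell. Over all transcripts tested, 14.4% rose and 12.2% fell, so the share of the 108 that rose lay near the background. The median difference was 0.59 over the 108 and -0.00426 over all tested. BV898_10276 was at 3.94, 9.62 and 2.12 at 9 h and at 11.1, 29.4 and 33.8 at 12 h, with no overlap. Its log2 difference was 2.10 (standard error 0.65, adjusted p = 0.0246 by limma, higher in all 3 libraries), a call lost in 6 of 36 alternatives. BV898_00226 was at 0, 0.869 and 3.18 at 9 h and at 3.80, 8.74 and 11.8 at 12 h, a log2 difference of 2.09 (limma, adjusted p = 0.0388), a call lost in 7 of 36 alternatives. The most abundant of the 108 at 24 h, BV898_01753, was named after its values were seen. It was at 132, 152 and 117 at 9 h, at 293, 515 and 715 at 12 h and at 1438, 1019.9 and 2020.0 at 24 h. Its log2 difference at 12 h was 1.83 (standard error 0.44, adjusted p = 0.00902 by limma, higher in all 3 libraries). That adjusted p was 0.0571 without 12 h replicate 3.

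The count at 12 h moved with single libraries and with the scaling. Leaving out 12 h replicate 2 gave 6, 12 h replicate 3 gave 2, 9 h replicate 1 gave 3, 9 h replicate 3 gave 5 and control replicate 2 gave 23. Over all transcripts 14.1%, 2.60%, 8.91%, 7.19% and 15.1% rose in these fits. The share of the 108 was thus above the background without control replicate 2 (21.3%) and below it without 9 h replicate 1 (2.78%) and 12 h replicate 2 (5.56%). The scale factors were 0.868, 0.855 and 0.664 in the 12 h replicates and 1.04 ± 0.0329 at 9 h (SD, n = 3), which raises scaled levels at 12 h. With TPM left unscaled, 3 of the 108 (2.78%) rose, where 6.16% of all transcripts rose and 23.1% fell. Leaving TPM unscaled moved the median difference of all transcripts from -0.00426 to -0.29, and that of the 108 was then 0.27.

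Within groups, the 108 transcripts tended to be high in the same libraries and low in the same libraries. Control replicate 3 was the highest control for 82 of the 108 (75.9%), against 35.4% of the transcripts considered. At 3 h replicate 3 was highest for 79 (73.1%, against 29.5%), and at 9 h replicate 1 was lowest for 77 (71.3%, against 34.7%). At 6 h replicate 1 was highest for 69 (63.9%, against 41.8%), and at 12 h replicate 2 was highest for 67 (62.0%, against 30.4%). At 0 and 1 h the order was less uniform, with at most 44 and 49 transcripts highest in 1 library. Transcripts of 1 library are not independent, and these counts are a description. The 56 transcripts left out for control replicate 2 had the same libraries highest and lowest by their medians in every group but 1 h, where replicate 3 was highest for them and lowest for the 108. Their median log2 level was 4.56, 4.94 and 5.45 in the 3 h replicates, 4.69, 4.23 and 2.68 for 6 h, and 3.56, 6.12 and 5.18 for 12 h. Their 1 h medians were 3.21, 3.70 and 3.999. They had medians of 5.40, 0 and 5.99 in the controls, a gap that the step leaving them out required. The lowest mean of the 7 other groups was at 0 h for 54 of the 56, against 21.6% of the transcripts considered.

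Some of the 108 carry locus numbers close to one another. In 4 cases members stood at successive numbers or with a single number between them, 12 transcripts in all: 3 pairs and a run of 6. The run holds BV898_13016, BV898_13017, BV898_13018, BV898_13020, BV898_13021 and BV898_13022, and was singled out after the values were seen. The table gives no positions, so whether these loci are neighbours on a chromosome cannot be told from it. Between them BV898_13019 was not chosen: its mean was 18.5 ± 0.832 in the controls, 25.5 ± 7.26 at 0 h and 26 ± 4.05 in the 24 h libraries (SD, n = 3), a margin of 0.06. BV898_13015, the number before the run, met the margin with 2.12 but was among the 56 left out for control replicate 2. BV898_13023, the number after it, had a mean of 39.2 ± 21.5 in the 12 h libraries and of 22.3 ± 6.11 in the 24 h libraries (SD, n = 3), a margin of -0.70.

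Levels at 24 h within the run ranged from a mean of 7.40 to one of 257 scaled TPM. BV898_13020, the highest, was at 261, 294 and 217 scaled TPM at 24 h, and its mean was 39.9 ± 22.6 at 12 h (SD, n = 3). BV898_13016 had a mean of 115 ± 21.1 at 24 h, and at 0 h its mean of 15.1 ± 3.49 was the highest of the 6 (SD, n = 3). BV898_13018, BV898_13021 and BV898_13022 had no level above 0 in any 0 h library and were at 15.0 ± 3.78, 7.40 ± 2.36 and 54.5 ± 25.6 at 24 h (SD, n = 3). TPM are corrected for length, so these levels can be set beside each other. If the loci are near-identical copies, the estimation may have split shared reads among them, which the table cannot show.

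**Figure D5:**
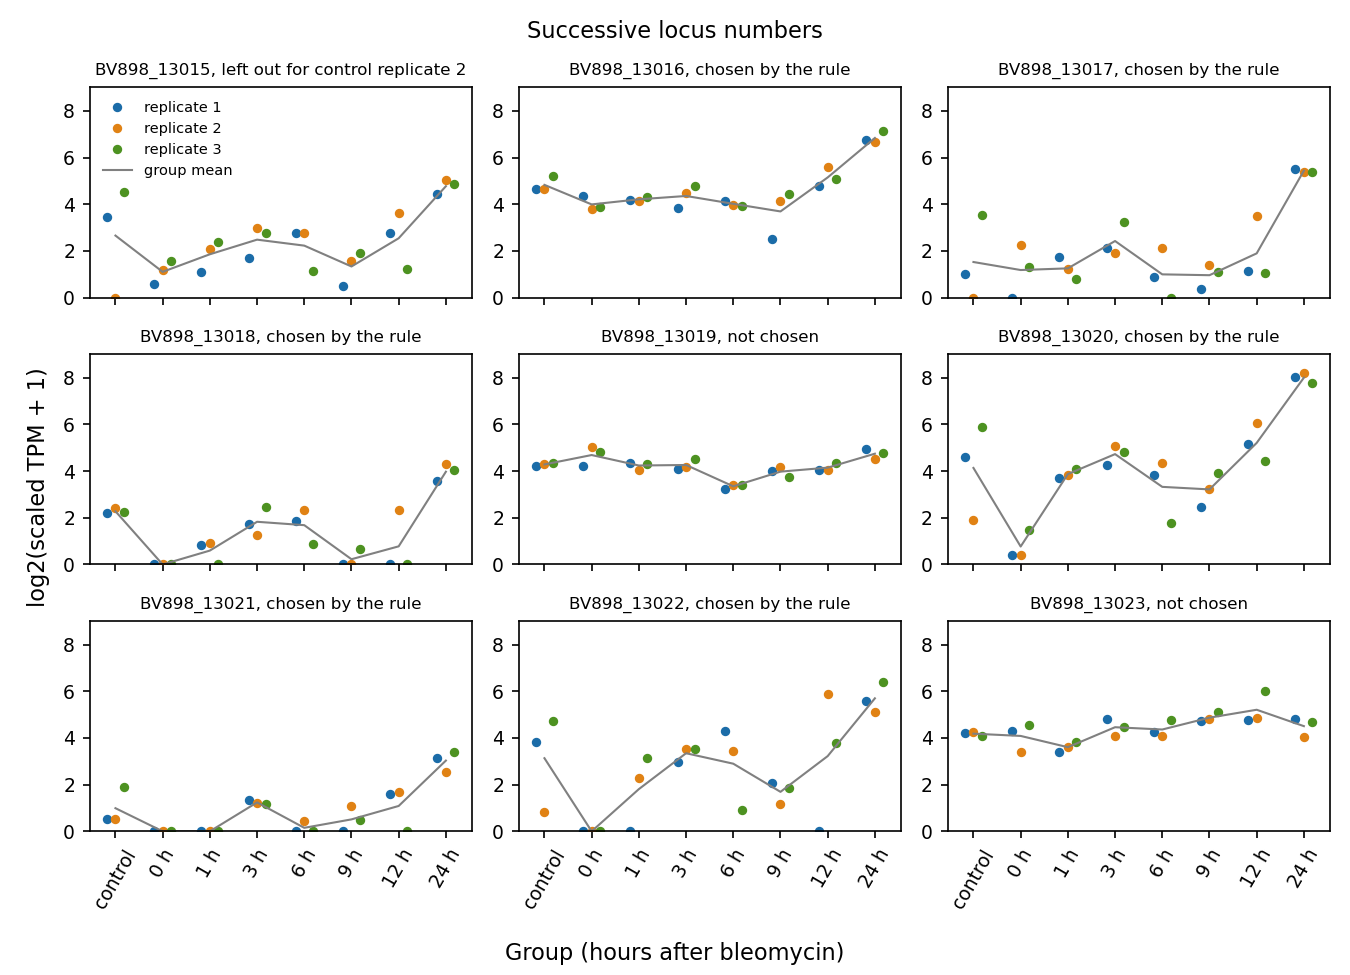
Level of 9 transcripts with successive locus numbers, log2(scaled TPM + 1), in every library by group in hours after bleomycin, with lines through the means of 3 libraries. The 6 chosen transcripts are highest at 24 h, as the rule asks. BV898_13019, between them, and BV898_13023, after them, have margins of 0.06 and -0.70.

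Isoforms decided the choice at 5 loci. Of the 108 transcripts 105 are the first isoform of their locus and 3 are another, and 5 of the loci have more than 1 isoform in the table. With TPM summed per locus, 103 of the 108 loci were chosen, and the 5 that were not are these 5. BV898_12671 gives an example, named after its values were seen. Its isoform t01 was at 8.65, 4.68 and 15.3 at 24 h and listed at 0 in all other libraries except 1 h replicate 1, at 2.74. Its isoform t02 had means of 9.90 ± 2.11 in the 24 h libraries, 12.8 ± 3.02 in the controls and 18.8 ± 1.31 in the 12 h libraries (SD, n = 3). RSEM assigns reads that isoforms share by estimation, so the level of a single isoform is less certain than that of its locus. The other 103 transcripts are the single isoform of their locus in the table.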

How the data were processed

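Per the file headers and values, the authors deposited TPM per transcript for 24 libraries in 1 table, each column summing to the same total within rounding, and not normalized across libraries. Tools in the submitters' processing notes are RSEM 1.2.26, Bowtie2 2.2.9, DESeq2 1.22.2 and FastQC 0.11.3, listed without their roles. A genome build is not given in the sources used here. Since TPM carries no depth, counting error is unknown, and a listed 0 may be an estimate that failed. Groups came from sample titles, and columns were matched by sample descriptions. No 2 libraries held identical values (0 pairs).

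The scale factor of a library was the median, over 12190 transcripts above 0 everywhere, of its ratio to their geometric means. The rule was applied to log2(scaled TPM + 1). The 16490 transcripts that reached 1 TPM in 3 or more libraries were fitted with limma 3.58.1 in R 4.3.3: a mean per group, all 24 libraries, two-sided, with eBayes robust and with a trend. No count model was used. The fit was run on simulated data of independent normal values with known changes in 12 h against 9 h. Those data had no shifts shared by transcripts of a library, so that run cannot show how such shifts affect the counts. Python 3.11.15 and matplotlib 3.10.9 were used otherwise.

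The transcripts and the contrasts were chosen with earlier results of these data known. Named are the 2 transcripts with the largest margin and the 2 with the largest called change per contrast. Others are said to be named later. Lists by product name matched 0 transcripts, since identifiers have no names, and sequences were not used here. Alternatives were other scalings, pseudocounts and filters, locus sums, quality weights, a replicate block, the compared libraries alone and leaving out each library. Counts of group order without control replicate 2 or with the filter applied outside 24 h were added after the data had been seen.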

Additional observations from a re-analysis of the deposited data

How the results depend on the processing

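The number of transcripts chosen was 108. It was 68 with a pseudocount of 5, 321 with a margin of 1, 28 with a margin of 2, and 81 to 134 when each library was left out in turn, the lowest without 24 h replicate 3 and the highest without 24 h replicate 1. Of the 108, 48 were also chosen with a pseudocount of 5, 76 with 0.1, 75 with TPM left unscaled (95 chosen) and 85 with quantile normalization (89 chosen). Ranges of the counts called in either direction cover each library left out in turn and a further fit, over 120 transcripts in place of the 108. They were 6 to 65 at 0 h against control, 30 to 59 at 1 h against 0 h and 5 to 20 at 3 h against 1 h. At 6 h against 3 h the range was 1 to 13, and at 12 h against 9 h it was 2 to 29. The lowest were 6 falls, 28 rises with 2 falls, 5 rises, 1 fall and 2 rises. Over all transcripts 1.76% fell, 9.07% rose and 7.04% fell, 2.18% rose, 0.861% fell and 2.6% rose in these fits. The highest of each came without control replicate 2 and with no transcript left out for it, over 120 transcripts. They were 65 falls, 56 rises with 3 falls, 20 rises, 13 falls and 29 rises. Over all transcripts 6.64% fell, 13.3% rose and 10.5% fell, 4.96% rose, 1.63% fell and 15.1% rose in that fit. With a library left out, the highest counts over the 108 came without control replicate 2, with the same shares over all transcripts. They were 56 falls at 0 h against control, 49 rises with 3 falls at 1 h against 0 h and 17 rises at 3 h against 1 h. At 6 h against 3 h there were 12 falls, and at 12 h against 9 h there were 23 rises. At 0 h against control the 17 falls became 10 with a pseudocount of 5, where 3.83% of all transcripts fell. They became 2 with the 6 libraries alone, where 1.31% fell. With quality weights the count was 59 (57 lower, 2 higher, where 16.2% of all transcripts were lower and 12.9% higher). At 3 h against 1 h the count of 10 was 32 with quality weights, all rises, where 9.02% of all transcripts rose. At 6 h against 3 h the count of 4 was 7 with quantile normalization, 2 with a pseudocount of 0.1 and 31 with quality weights. All were falls, where 1.43%, 1.07% and 4.4% of all transcripts fell. At 12 h against 9 h the count of 12 was 3 with TPM left unscaled, all rises, where 6.16% of all transcripts rose. It was 19 with TPM summed per locus. Of these 17 (15.7%) rose and 2 fell, where 15.8% of all loci rose and 13.3% fell. Fitted only over the 12916 transcripts past the filter of the rule, 23 of the 108 fell at 0 h against control, where 5.4% of all fell. In that fit 9 rose at 3 h against 1 h, where 6.23% rose, and 5 fell at 6 h against 3 h, where 1.84% fell. At 12 h against 9 h 15 (13.9%) rose and 1 fell, where 19.1% of all rose and 16.7% fell. The cause of these shifts was not tested. No called difference of a named transcript changed sign in the alternatives run.

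With the replicate number as a block 16 fell at 0 h against control, where 4.01% of all transcripts fell. At 1 h against 0 h 41 rose and 3 fell, where 12.7% of all rose and 10.5% fell. At 3 h against 1 h 9 rose, where 4.86% rose, and at 6 h against 3 h 4 fell, where 1.41% fell. At 9 h against 6 h 0 were called, and 0 of all transcripts. At 12 h against 9 h 12 (11.1%) rose and 1 fell, where 14.9% of all rose and 12.8% fell. The labels do not say that a number marks a shared batch, and correlations of same-numbered libraries ran from -0.30 to 0.41, with 12 of 24 libraries closest to their own number, so the numbers were not taken as pairs.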
